A study of Mus musculus with 11 samples.

Results

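The 10 genes described here are Slc26a5, which encodes prestin, and Strip2, Aqp11, Lmod3, Pde6d, Mpc1, Car2, Agpat2, Serpina1c and Mslnl, of the 24898 genes listed in at least one table of the series. They were chosen because their transcripts stood higher in outer than in inner hair cells of these same libraries at P1 or P7, so those differences are given as descriptions without a test. The cells came from the floor of the cochlear duct of wildtype CD1 mice, with the tissue of several littermates of either sex combined before dissociation and capture in droplets. There were 3 libraries at embryonic day 16 (E16), 4 at postnatal day 1 (P1) and 2 at postnatal day 7 (P7), with no treatment at any age. The 2 further libraries at E14 held too few hair cells for a comparison of hair cells. The libraries held between 1247 and 5598 cells and between 3828399 and 23523802 unique molecular identifiers (UMIs, each standing for one captured transcript). Any pair of the 11 libraries shared between 1 and 36 cell barcodes, at most 0.958% of the smaller library.

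The cochlea carries one row of inner hair cells (IHCs), which signal sound to the auditory nerve, and several rows of outer hair cells (OHCs), which amplify vibration by changing length. Prestin is the voltage-driven motor protein of the OHC lateral membrane that produces this movement, and it appears late, as OHCs mature after birth. Supporting cells surround the hair cells, pillar and Deiters' cells on the lateral side near the OHCs and the cells of Kölliker's organ (KO) on the medial side near the IHCs.

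Hair cells were taken as cells with at least 3 UMIs of Myo6, a myosin of hair cells. Those with Fgf8, a growth factor made by IHCs, were called IHCs, and those without Fgf8 but with at least 1 UMI of Ocm (oncomodulin), a calcium buffer of OHCs, were called OHCs. This gave 173 IHCs and 249 OHCs at P1, and 72 IHCs and 166 OHCs at P7. At E16 only 6 hair cells held Ocm without Fgf8, so the 270 hair cells with neither gene were set against the 74 IHCs there. The summed level of 10 other OHC markers was 621 to 824 CPM (a gene's UMIs per 1000000 UMIs of the cell, averaged over cells) in P1 OHCs and 45.0 to 106 in P1 IHCs. Over the 9 of these markers listed at P7 the sum was 1183 to 1375 CPM in P7 OHCs and 12.5 to 98.6 in P7 IHCs, while 10 IHC markers summed to 1112 to 1500 CPM in P7 OHCs and 10803 to 11364 in P7 IHCs. At P1 the IHC markers were less divided, at 2137 to 3234 CPM in OHCs, 5720 to 8429 CPM in IHCs and 1479 to 2019 CPM in hair cells with neither gene. In the E16 hair cells without either gene the OHC markers summed to 279 to 560 CPM, above the 58.9 to 134 CPM of E16 IHCs, and the 9 IHC markers listed at E16 to 982 to 1165 CPM against 2741 to 3673 CPM. This E16 class may include hair cells other than OHCs. A further 625 hair cells at P1 held neither gene, and their OHC markers summed to 293 to 675 CPM. These markers were not confined to OHCs, since they summed to 211 to 346 CPM in P1 lateral supporting cells. In P7 lateral supporting cells they summed to 132 to 471 CPM. Ocm itself was not absent from cells with Fgf8, which held it in 41 cells at P1 and in 50 of 72 at P7, at 551 to 792 CPM in P7 IHCs against 11639 to 13101 CPM in P7 OHCs. The 54 cells with Myo6 but neither gene at P7 had only 84.4 to 312 CPM of 10 hair cell markers, against 14271 to 20123 CPM in the OHCs and IHCs of that age, and were left out.

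The genes lie on several chromosomes (mm10, GRCm38, with gene spans from GENCODE M21). Slc26a5 spans chr5:21810655-21865604 on the minus strand, Strip2 chr6:29917012-29959681 on the plus strand, Aqp11 chr7:97724006-97738289 on the minus strand and Lmod3 chr6:97238534-97252759 on the minus strand. Pde6d spans chr1:86542994-86582629 (minus), Mpc1 chr17:8282904-8297661 (plus), Car2 chr3:14886273-14900770 (plus), Agpat2 chr2:26593057-26604417 (minus), Serpina1c chr12:103894926-103904887 (minus) and Mslnl chr17:25736042-25748330 (plus). No member overlaps another gene on its own strand. Of the 60-base stretches in the last 500 bases of its transcripts, where reads of this chemistry fall, Serpina1c shares 32.7% with its neighbors Serpina1a, Serpina1b, Serpina1d, Serpina1e and Gm8893, and Mpc1 shares 15.3% with Mpc1-ps and Gm8219, so their counts may hold or lack reads of these copies. The other 8 genes share none.

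The 250 bases directly upstream of the RefSeq start are shown for 3 of the genes that were near 0 outside hair cells, 1 for each course described below: Slc26a5 (measured mainly at P7), Strip2 (at P1 and P7) and Serpina1c (at P1). They were read 5′ to 3′ on the gene's strand from RefSeq (GRCm38.p6), with a GC box (GGGCGG) or a CCAAT box (CCAAT) on either strand in capitals, which do not overlap one another. They lie at chr5:21865605-21865854 for Slc26a5, chr6:29916763-29917012 for Strip2 and chr12:103904951-103905200 for Serpina1c.
Slc26a5: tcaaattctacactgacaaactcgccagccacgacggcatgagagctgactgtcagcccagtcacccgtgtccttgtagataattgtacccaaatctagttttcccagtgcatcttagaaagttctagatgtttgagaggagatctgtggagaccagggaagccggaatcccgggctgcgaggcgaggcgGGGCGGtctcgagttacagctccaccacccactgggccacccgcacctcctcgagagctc
Strip2: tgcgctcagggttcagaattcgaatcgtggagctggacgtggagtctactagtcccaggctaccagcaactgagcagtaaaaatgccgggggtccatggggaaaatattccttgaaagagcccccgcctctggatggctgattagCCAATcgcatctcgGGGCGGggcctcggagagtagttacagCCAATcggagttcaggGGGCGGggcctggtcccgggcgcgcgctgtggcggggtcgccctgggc
Serpina1c: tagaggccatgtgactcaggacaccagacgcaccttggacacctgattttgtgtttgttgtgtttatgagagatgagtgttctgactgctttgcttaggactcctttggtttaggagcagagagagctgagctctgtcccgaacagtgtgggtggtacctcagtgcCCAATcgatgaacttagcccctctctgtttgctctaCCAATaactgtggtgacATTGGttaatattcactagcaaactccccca
The Slc26a5 window holds 1 GC box and no CCAAT box, the Strip2 window 2 of each, and the Serpina1c window 3 CCAAT boxes and no GC box. In the same order they hold 56%, 62% and 48% G or C against a median of 52.4% over 32851 windows of the same length and placement. Windows were found for 8 of the 10 genes, of which 4 held a GC box, 3 a CCAAT box, none TATAAA and 5 an E-box (CANNTG). Of all windows, 32.7% held a GC box, 33.8% a CCAAT box, 12.4% TATAAA and 66.2% an E-box. No test was made of these shares.

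Prestin transcripts were almost confined to P7 OHCs among the gated classes. The gene had no row in the E16 table used here. At P1 its level in OHCs was 0, 0, 0 and 3.06 CPM in replicates 1 to 4 and 0 in all 4 IHC samples. All 5 of its P1 UMIs were in replicate 4, 1 in an OHC and 4 in hair cells without Fgf8 or Ocm, each in a separate cell. At P7 the OHC level was 58.3 and 64.7 CPM in replicates 4 and 5, and 0 in both IHC samples. The P7 OHC mean of 61.5 CPM ± 4.55 (SD, n = 2) was at least 11.5-fold higher than the IHC level, taking 3 UMIs over all IHCs as the lowest level that could be told from 0. At least 1 prestin UMI was held by 19 of 71 OHCs (26.8%) in replicate 4 and by 34 of 95 (35.8%) in replicate 5, with at most 3 in any cell. With every cell thinned to 1500 UMIs, the share was 8.43% of P7 OHCs (exact 95% binomial interval 4.69 to 13.7%, counting error only), 0 of 72 IHCs (up to 4.99%), and 0.0632% of KO cells, for median depths of 6967, 7715 and 4554.5 UMIs per cell before thinning. Before thinning 31.9% of P7 OHCs held a UMI, and at this depth the remaining cells cannot be called negative.

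**Figure D1:**
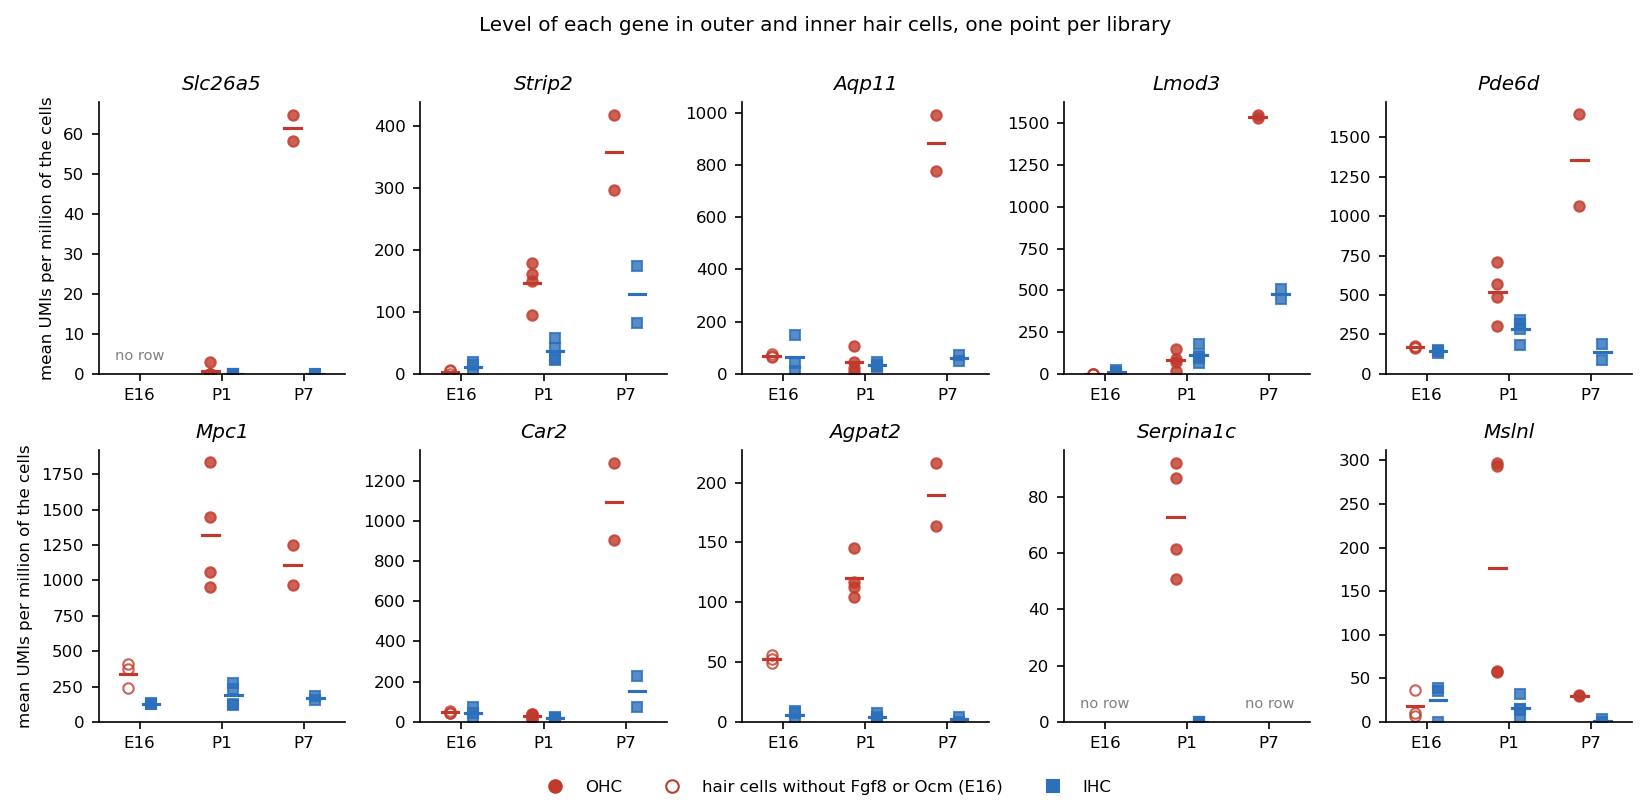
Mean level (CPM) in outer and inner hair cells for each gene, by age, with 1 point per library, bars at the mean and axes of differing range. At P7 every OHC library lies above both IHC libraries for the 9 genes listed, while at P1 the classes overlap for Slc26a5, Aqp11, Lmod3, Pde6d and Car2.

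The members did not separate OHCs from IHCs at one age. At E16 every library of the hair cells without Fgf8 lay above every IHC library for 3 of the 8 genes listed (Pde6d, Mpc1 and Agpat2), where 7.25% of all genes tested did so (6.34% lay below). At P1 this held for 5 of 10 (Strip2, Mpc1, Agpat2, Serpina1c and Mslnl; 3.19% of all genes), and at P7 for 9 of 9 (22.8% of all genes, and 22.4% lay below, 2 libraries against 2). No member had every library below those of IHCs at any of these ages, where at P1 3.19% of all genes did. The shares of all genes, here and in the library comparisons below, cover only genes averaging at least 10 CPM. Of the members listed, 6 of 8 reached that mean at E16, 9 of 10 at P1 and 9 of 9 at P7. Since the genes were chosen on this contrast, nothing is read from these counts against their background.

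Aqp11 and Car2 overlapped between the classes at P1 and stood apart at P7, as did Slc26a5, Lmod3 and Pde6d. Aqp11, an intracellular aquaporin of the endoplasmic reticulum, stood at 107, 5.57, 21.4 and 46.5 CPM in the OHCs of P1 replicates 1 to 4, and at 33.9, 27.5, 44.4 and 30.4 CPM in the IHCs. The classes overlapped, and OHCs were higher in 2 of 4 libraries. At P7 Aqp11 was at 991 and 778 CPM in OHCs and at 73.4 and 48.2 CPM in IHCs, a ratio of the means of 14.5. Car2, the cytosolic carbonic anhydrase that interconverts carbon dioxide and bicarbonate, was at 14.5 to 39.8 CPM in P1 OHCs and 14.0 to 22.8 CPM in P1 IHCs, with overlapping ranges although OHCs were higher in each library. By P7 it was at 1287 and 904 CPM in OHCs against 231 and 74.0 CPM in IHCs, a ratio of 7.19, or 12.2 without replicate 4. At E16 both genes overlapped between the classes, with Aqp11 at 63.4 to 75.3 CPM in hair cells without Fgf8 and 9.10 to 147 CPM in IHCs.

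Mpc1 and Agpat2, 2 genes of metabolism, stood apart between the classes at all 3 ages. Mpc1, a subunit of the mitochondrial pyruvate carrier, was at 238, 377 and 409 CPM in E16 hair cells without Fgf8 and at 124, 135 and 127 CPM in E16 IHCs. In OHCs it stood at 1832, 1058, 952 and 1448 CPM in the P1 replicates, where IHCs had 273, 121, 124 and 231 CPM, a ratio of 7.07. At P7 the ratio was 6.57, with 1252 and 969 CPM in OHCs and 182 and 156 CPM in IHCs, so that the difference was already as large at P1 as at P7. Agpat2, which makes phosphatidic acid from lysophosphatidic acid, was at 49.0 to 56.3 CPM in E16 hair cells without Fgf8, while all E16 IHCs together held 2 UMIs. At P1 it stood at 113, 104, 145 and 117 CPM in OHCs and at 1.38, 4.02, 2.30 and 7.81 CPM in IHCs, where 6 UMIs were counted, a ratio of 30.9, or 47 without replicate 4. At P7 the OHC libraries were at 164 and 216 CPM and the IHCs again held only 2 UMIs in all. With at most 1 supporting marker UMI per hair cell, Agpat2 overlapped between the E16 classes. It was low in IHCs at all 3 ages and is the member for which the classes stood furthest apart on the log2(CPM + 10) scale at P7, by 4.05 ± 0.07 (SE, n = 2).

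Strip2, Lmod3 and Pde6d, genes of signaling, the actin cytoskeleton and membrane trafficking, each took a different course. Strip2, a part of the striatin-interacting phosphatase and kinase (STRIPAK) complexes, was near the detection limit at E16, with 4 UMIs in each class. At P1 it was at 161, 179, 95.6 and 150 CPM in OHCs and 23.0, 41.2, 23.4 and 56.99 CPM in IHCs, and at P7 at 298 and 418 CPM in OHCs and 82.4 and 175 CPM in IHCs. Its OHC to IHC ratio was 4.05 at P1 and 2.78 at P7, and the level in IHCs was higher at P7 too. With 1 library left out the ratio was 3.49 to 4.98 at P1 and 2.39 to 3.61 at P7, so these ranges overlapped. Lmod3, a leiomodin that seeds actin filaments in muscle, did not separate the classes at P1, with 146, 86.0, 18.3 and 71.4 CPM in OHCs and 67.1, 106, 95.9 and 180 CPM in IHCs, so that OHCs were higher in 1 of 4 libraries. At P7 Lmod3 was at 1531 and 1550 CPM in OHCs and 447 and 507 CPM in IHCs, a ratio of 3.23. Pde6d, a carrier that ferries prenylated proteins between membranes, was at 161 to 175 CPM in E16 hair cells without Fgf8 and 132 to 151 CPM in E16 IHCs. This E16 difference of 0.23 in log2(CPM + 10) was -0.0196, with overlapping libraries, where hair cells needed only 2 UMIs of Myo6, and the libraries also overlapped with at most 1 supporting marker UMI. In P1 OHCs it stood at 708, 571, 486 and 303 CPM and in P1 IHCs at 318, 343, 283 and 181 CPM, so the ranges overlapped between libraries, yet OHCs were higher in all 4. Replicate 4 was lowest in both classes. By P7 Pde6d was at 1645 and 1066 CPM in OHCs and 192 and 90.0 CPM in IHCs, a ratio of 9.62.

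Serpina1c could be measured at P1 only, and Mslnl was higher in P1 than in P7 OHCs. Serpina1c, one of the mouse copies of the alpha-1-antitrypsin gene for a protease inhibitor, had rows in the P1 table only. It was at 50.6, 91.9, 86.7 and 61.5 CPM in P1 OHCs and 0 in every IHC library, at least 32.6-fold lower by the level of 3 UMIs over the IHCs. Hair cells without Fgf8 or Ocm held 11.3, 31.2, 34.2 and 34.4 CPM, below OHCs in every library, and no UMI was counted in lateral supporting cells, KO cells or the cells marked by Fst, Otoa or Oc90. Mslnl, a relative of mesothelin of unsettled function, was at 56.8, 294, 297 and 58.7 CPM in the OHCs of P1 replicates 1 to 4 and at 2.46, 32.1, 14.6 and 14.5 CPM in IHCs, a ratio of 11.1. Replicates 2 and 3 were high and 1 and 4 low, and the hair cells without Fgf8 or Ocm showed the same split, at 32.5, 180, 168 and 36.2 CPM. At P7 Mslnl was at 31.0 and 29.3 CPM in OHCs, with a single UMI in IHCs, and at E16 it was at 6.31 to 36.4 CPM in hair cells without Fgf8 against 0 to 38.9 CPM in IHCs.

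**Figure D2:**
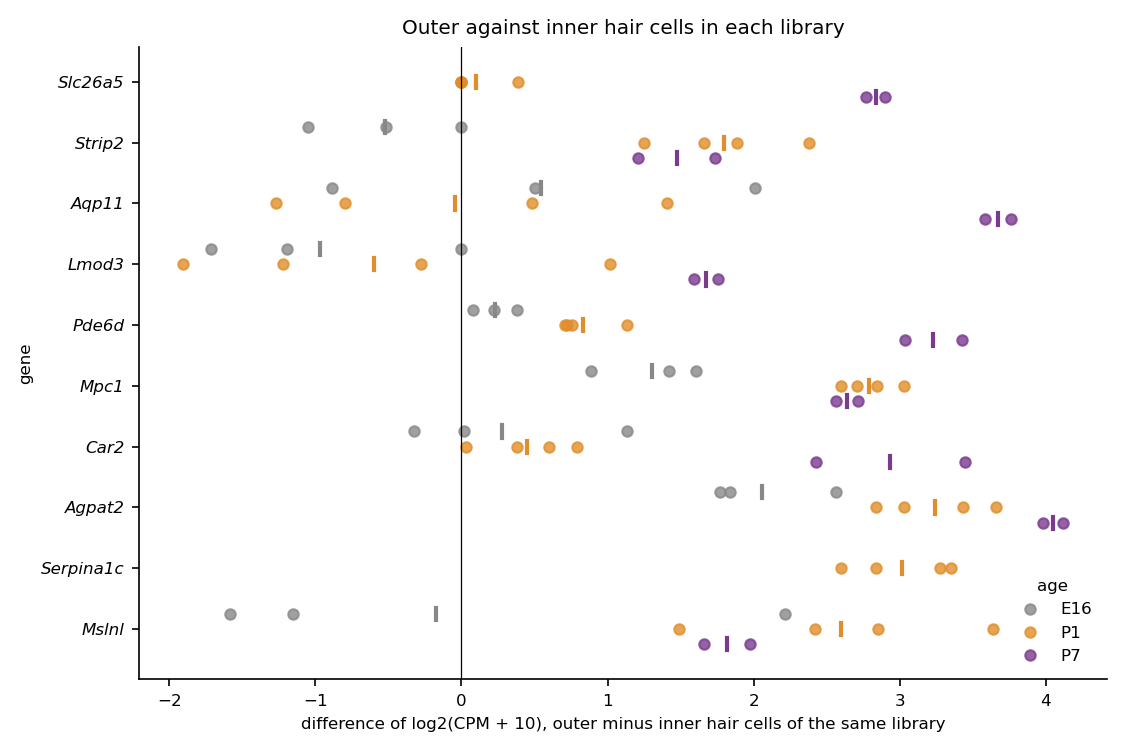
Difference of log2(CPM + 10) between outer and inner hair cells of the same library (at E16, hair cells without Fgf8 or Ocm against inner hair cells), with 1 point per library and a bar at the mean of each age. Mpc1 and Agpat2 lie above 0 at all 3 ages, while Aqp11 and Lmod3 lie on both sides of 0 at P1 and above it at P7.

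Within OHCs the genes followed separate courses from P1 to P7. At P1 the gate took the 249 hair cells with Ocm and left 625 with neither gene, so the 2 ages may differ in the cells gated as well as in age. Libraries of P7 lay above all those of P1 for 7 of the 9 genes listed at both ages (16.7% of all genes), below them for Mslnl alone (19% of all genes), and overlapped for Mpc1. The ratio of mean levels was 37.8 for Car2, 19.6 for Aqp11 and 19.2 for Lmod3, and between 1.58 and 2.62 for Agpat2, Strip2 and Pde6d. Without P1 replicate 1, the highest for Aqp11, the ratio of Aqp11 was 36.1. Mslnl was 5.85-fold lower at P7, and Mpc1 stood at 0.839 of its P1 level. From the E16 hair cells without Fgf8 or Ocm to P1 OHCs, which differ in gate as well as age, 6 of 8 genes were above in every library (14.6% of all genes), Car2 below (10.5%), and Aqp11 overlapped. With the same gate at both ages, hair cells without Fgf8 or Ocm, 5 of 8 were above (Strip2, Lmod3, Pde6d, Mpc1 and Agpat2; 11.9%) and 0 below (6.5%). OHC and IHC levels took part in choosing the members, so nothing is read from these counts, or those of IHCs below, against the shares.

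IHCs shared part of these changes. Of the members listed, 7 of 8 averaged at least 10 CPM over E16 and P1 IHCs, and 7 of 9 over P1 and P7 IHCs. From E16 to P1 the IHC libraries were all above for Strip2, Lmod3 and Pde6d, 3 of 8 genes (10.2% of all genes; 0 below, 6.21%), and from P1 to P7 for Strip2, Aqp11, Lmod3 and Car2, 4 of 9 (12.9%; 0 below, 15.6%). Lmod3 was 4.25-fold and Car2 8.71-fold higher in P7 than in P1 IHCs (4.23-fold for Car2 without P7 replicate 4 and 13.2-fold without replicate 5), whereas the 2 P7 values of Pde6d, 192 and 90.0 CPM, lay partly below the 181 to 343 CPM of P1 IHCs. Levels of Lmod3 and Strip2 in P7 IHCs were 0.310 and 0.359 of those in P7 OHCs. For the other members listed at P7 this share ranged from 0 (Slc26a5) to 0.152 (Mpc1).

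At P1 the OHC gate kept the cells with Ocm, and the 625 hair cells with neither gene were their nearest neighbors. Every OHC library lay above every library of these cells for Serpina1c alone (1.31% of all genes), and below for none (2.31%). Within each library, OHCs were above these cells in 4 of 4 for 6 of 10 members (Strip2, Pde6d, Mpc1, Agpat2, Serpina1c and Mslnl; 11.6% of all genes) and below them in 4 of 4 for Aqp11 (14.2%). OHC levels took part in choosing the members, so nothing is read from the counts of this paragraph against the shares. The 10 lateral supporting markers summed to 590 to 1454 CPM in the hair cells with neither gene and 289 to 649 CPM in OHCs. P1 lateral supporting cells held 406 to 539 CPM of Aqp11, and their part in its difference was not tested. Lmod3 was at 19.7 to 41.8 CPM in hair cells without Ocm against 18.3 to 146 CPM with it, and Mpc1 was at 849 to 1228 CPM without it. Where at least 3 UMIs of Ocm were asked of an OHC, only 2 P1 libraries kept 5 such cells, and 8 of 10 members were then above IHCs (12.6% of all genes, 2 libraries against 2). Lmod3 was among them, with a difference of 0.79 in log2(CPM + 10), where it was -0.60 over the 4 libraries with at least 1 UMI of Ocm. Where all hair cells without Fgf8 were taken as OHCs, every P1 library of Lmod3 lay below those of IHCs, with a difference of -1.19. With at least 1 UMI of Ocm asked and replicate 1 left out, they also lay below, with a difference of -1.13.

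Markers of supporting cells were present in the hair cell classes and were higher in P7 OHCs. All 10 markers of lateral supporting cells were detected in P7 OHCs and 9 of 10 in IHCs, summing to 540 to 765 CPM in OHCs, 314 to 539 CPM in IHCs and 6300 to 6485 CPM in lateral supporting cells, and 10 KO markers summed to 3882 to 6052 CPM in OHCs and 2389 to 3597 CPM in IHCs, with 1 of the 10 at 0 in each class. Glial markers reached 229 CPM in one P7 OHC library and 31.6 CPM at most in IHCs. Among hair cells with at most 1 UMI of the lateral supporting markers, 33.7% of P7 OHCs and 45.8% of P7 IHCs, all 9 members listed were above IHCs (21.4% of all genes), with differences in log2(CPM + 10) of 4.17 for Aqp11, 3.19 for Car2, 3.09 for Pde6d and 4.66 for Agpat2. The contrast is again the one that chose the members, so nothing is read from this count or the E16 one below. The restriction did not cover the KO or glial markers. In the E16 classes 1 of 8 members, Mpc1, was above under this restriction (7.6% of all genes). Without it, the 10 lateral supporting markers at E16 summed to 565 to 692 CPM in hair cells without Fgf8 or Ocm and 226 to 424 CPM in IHCs.

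**Figure D3:**
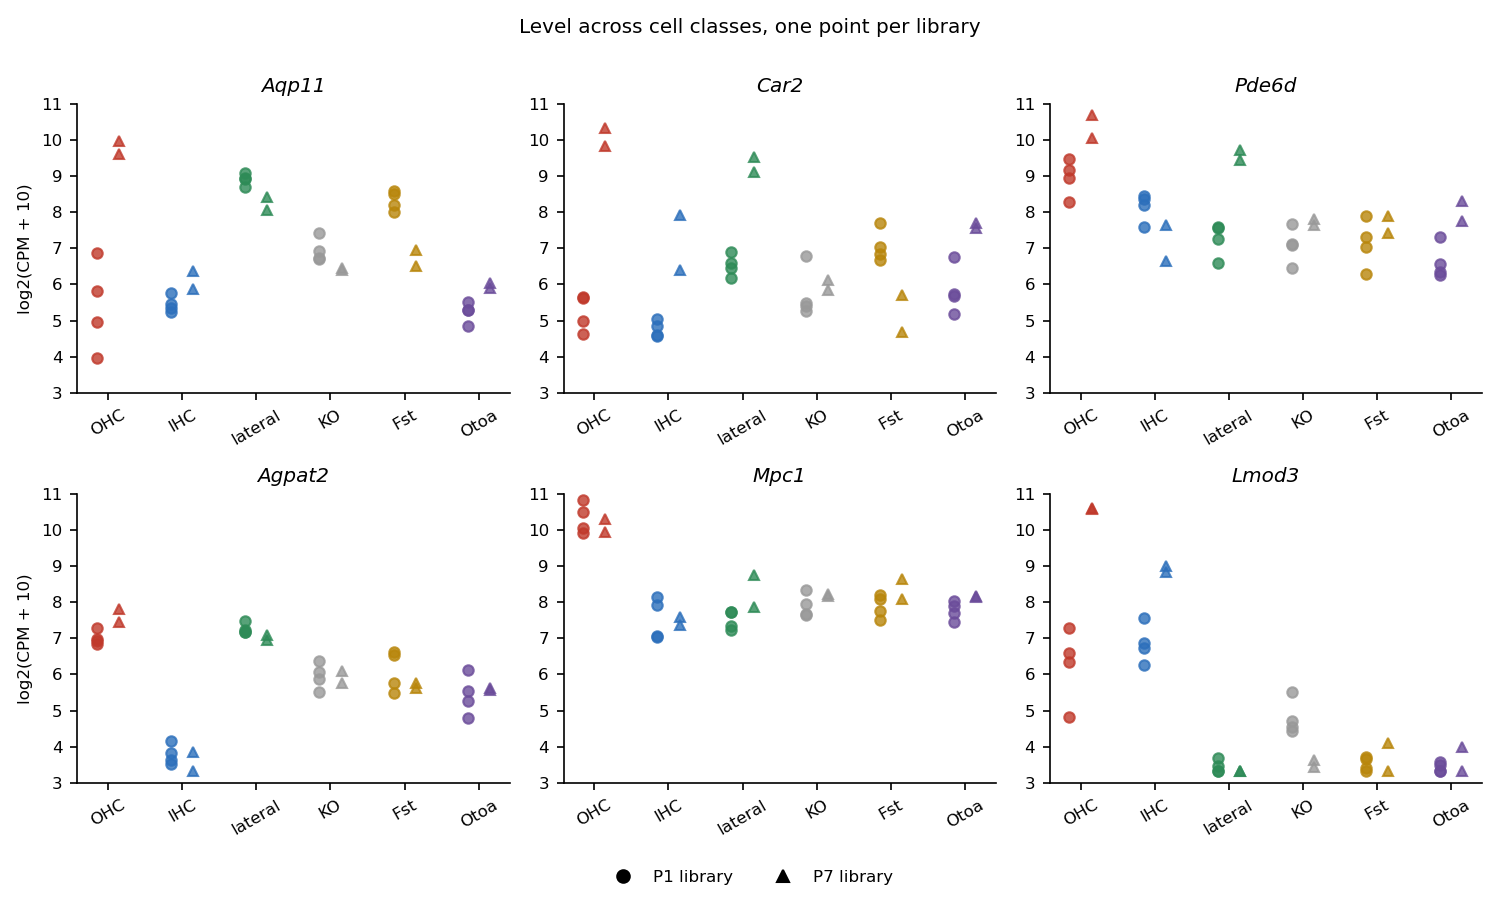
Level of 6 genes as log2(CPM + 10) in outer hair cells, inner hair cells, lateral supporting cells, Kölliker's organ (KO) cells and cells marked by Fst or Otoa, with 1 point per library, circles for P1 and triangles for P7. For Aqp11 and Car2 the P1 OHC libraries lie below those of lateral supporting cells and the P7 OHC libraries above them.

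Outside hair cells the genes fell into distinct groups. Slc26a5, Mslnl and Strip2 were near 0 in every other class, with no P1 or P7 library above 10.5 CPM, and Serpina1c was at 0 in them at P1, the age at which it was listed. Aqp11, Agpat2, Car2, Pde6d and Mpc1 were measured in all classes. Aqp11 was at 406 to 539 CPM in P1 lateral supporting cells, above the 5.57 to 107 CPM of P1 OHCs, and at 257 to 332 CPM in P7 lateral supporting cells, below the 778 to 991 CPM of P7 OHCs. P7 OHCs also stood above the lateral supporting cells of their libraries for Car2 (904 to 1287 against 540 to 725 CPM) and Pde6d (1066 to 1645 against 687 to 841 CPM). The same held for Mpc1 (969 to 1252 against 225 to 421 CPM) and Agpat2 (164 to 216 against 113 to 127 CPM). Agpat2 did not stand above them earlier. At P1 it was at 134 to 167 CPM in lateral supporting cells and 104 to 145 CPM in OHCs. At E16 it was at 65.0 to 106 CPM in the lateral supporting gate and 49.0 to 56.3 CPM in hair cells without Fgf8. The share of all genes set apart in this way was not counted.

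Lateral supporting cells (Fgfr3 and Prox1, no more than 1 UMI of Myo6) were tested against KO cells (Epyc, without Fgfr3 or Prox1), a contrast that took no part in choosing the members. At E14 and E16 the authors place Fgfr3 and Prox1 in lateral prosensory cells, which by their fate mapping of Fgfr3 cells also give rise to OHCs. Before birth the lateral supporting class may thus hold progenitors of OHCs as well as supporting cells. At E16, limma with Benjamini-Hochberg adjustment over all genes found 3 of 5 members tested higher in lateral supporting cells (4.79% of all genes) and none lower (4.75%). Aqp11 was higher by 2.31 ± 0.27 (SE) in log2(CPM + 10), at 208 to 403 CPM against 42.3 to 54.5 CPM (adjusted p = 3.23e-07, 3 libraries of each), Agpat2 by 1.60 ± 0.37 (adjusted p = 0.00353) and Car2 by 0.96 ± 0.31 (adjusted p = 0.0477). At P1, 3 of 6 were higher (18.6% of all genes) and Mpc1 was lower (13.7%). Lmod3 was also called lower but passed the filter on low values only through its level in KO cells. Its direction was thus set by the filter, so it is not set against the share and is given without a p. Aqp11 was again higher, by 1.96 ± 0.13 (adjusted p = 6.06e-08), with Agpat2 at 134 to 167 against 36.0 to 72.2 CPM (1.30 ± 0.14, adjusted p = 8.53e-06) and Car2 (0.81 ± 0.23, adjusted p = 0.0176). Lmod3 stood at 0 to 2.78 CPM in lateral supporting cells and at 11.7 to 35.4 CPM in KO cells, and Mpc1 differed by -0.39 ± 0.11 (adjusted p = 0.0163). Without replicate 1 or replicate 3 the number of members called at P1 was 3 in place of 5 (Lmod3 counted where called), and without replicate 3 the number at E16 was 1 in place of 3. Car2 lost its call at E16 without replicate 2 or 3 and at P1 without replicate 2, 3 or 4.

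At P7, 3 of 5 members tested were higher in lateral supporting cells (5.69% of all genes) and none lower (4.85%), on 23 lateral supporting cells in 2 libraries, where limma's spread rests almost wholly on that shared across genes. Car2 was at 540 and 725 CPM against 47.9 and 60.3 CPM (3.32 ± 0.35, adjusted p = 1.13e-18), Pde6d at 687 and 841 against 189 and 215 CPM (1.86 ± 0.29, adjusted p = 1.43e-08) and Aqp11 at 257 and 332 against 74.6 and 77.8 CPM (1.81 ± 0.38, adjusted p = 5.04e-05). Agpat2, at 113 and 127 against 44.0 and 57.9 CPM, gave 1.10 ± 0.46 (adjusted p = 0.116).

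Across ages in lateral supporting cells, none of the 5 members tested passed from E16 to P1 by limma, with 1 at an unadjusted p under 0.05, where 0.792% of all genes were called higher and 1.01% lower. From P1 to P7, Car2 rose from the range of 62.8 to 110 CPM to 540 and 725 CPM (2.77 ± 0.35, adjusted p = 0.000243) and Pde6d from the range of 85.9 to 183 CPM to 687 and 841 CPM (2.33 ± 0.35, adjusted p = 0.000861), where 2.88% of all genes were called higher and 4.68% lower. With weights that let each library vary by its own amount, the adjusted p was 0.000701 for Car2 and 0.00639 for Pde6d. Markers of other cell types in the lateral supporting class were higher at P7 too. The 10 KO markers summed to 816 to 1149 CPM at P1 and 1573 to 2701 CPM at P7 (1 of 10 at 0), and 5 mesenchyme markers to 83.4 to 172 CPM and 213 to 596 CPM (2 of 5 at 0). Their part in the changes of Car2 and Pde6d was not tested, and P7 KO cells themselves held the 47.9 and 60.3 CPM of Car2 and the 189 and 215 CPM of Pde6d given above. Aqp11, by contrast, differed by -0.68 ± 0.30 in the same cells (adjusted p = 0.178), and Mpc1 by 0.80 ± 0.35 (adjusted p = 0.174). Of the 5 members tested from P1 to P7 by limma, 4 had an unadjusted p under 0.05. The median over all genes shifted by 0.12 from E16 to P1 and by -0.14 from P1 to P7. Car2 and Pde6d were thus higher at P7 in lateral supporting cells as well as in OHCs, which were not tested. They were also higher at P7 in Otoa cells, likewise not tested. There Car2 went from 26.1 to 97.8 CPM at P1 to 179 and 197 CPM, and Pde6d from 66.3 to 150 CPM to 208 and 311 CPM. In KO cells the ages overlapped for Car2 and Pde6d. In Fst cells Pde6d overlapped, and Car2 was lower at P7 (15.9 to 42.5 against 92.7 to 197 CPM).

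Genes that work with or resemble the members were tested in OHCs against IHCs, in 11 lists of 112 genes in all. Of those that could be tested, 1 of 50 was higher in E16 hair cells without Fgf8 (Ldhb; 0.897% of all genes) and 1 lower (Chrna9; 0.795%), of which 0 passed without replicate 1 and 1 without replicate 2. At P1, 5 of 51 were higher (4.64%) and Chrna9 was lower (4.31%), and at P7, 8 of 54 were higher (6.36%) and Ldha was lower (5.5%). Car7 at P1 and Otoa at P7 were also called lower but passed the filter on low values only through IHCs. Their direction was thus set by the filter, so they are not set against these shares and are given without a p. At P7 these tests rest on 1 residual degree of freedom and a spread shared across genes.

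Of the genes of pyruvate metabolism around Mpc1, 1 of 11 tested was higher at P1 (4.64% of all genes) and 0 lower (4.31%). At P7, 2 of 12 were higher (6.36%) and 1 lower (5.5%). With so few genes, nothing is read from these counts against the shares. Ldhb, the lactate dehydrogenase subunit of oxidative tissues, was at 846 to 1248 CPM in P1 OHCs and 295 to 376 CPM in P1 IHCs (1.53 ± 0.10, adjusted p = 1.46e-15), and at 969 and 1987 against 574 and 995 CPM at P7 (0.87 ± 0.12, adjusted p = 9.82e-10). Mpc2, the partner subunit of Mpc1 in the carrier, was higher in P7 OHCs by 0.69 ± 0.17 (adjusted p = 0.00102), at 599 and 649 CPM against 378 and 389 CPM. Ldha, the glycolytic lactate dehydrogenase subunit, was lower in P7 OHCs, at 71.8 and 80.2 CPM against 129 and 179 CPM (-0.92 ± 0.29, adjusted p = 0.0189). Among hair cells with at most 1 UMI of the supporting cell markers, Ldhb kept its call, while Mpc2 (0.62, adjusted p = 0.164) and Ldha (-1.13, adjusted p = 0.209) did not pass.

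Among mesothelin relatives, carbonic anhydrases and aquaporins, 0 to 3 genes per list could be tested at an age. Strc (stereocilin), a mesothelin relative that links stereocilia and anchors them in the tectorial membrane, was at 73.4 to 120 CPM in P1 OHCs against 9.95 to 37.7 CPM in IHCs (1.49 ± 0.26, adjusted p = 4.24e-05) and at 309 and 355 against 34.7 and 37.0 CPM at P7 (2.90 ± 0.28, adjusted p = 9.68e-20). Otoa (otoancorin), another relative that attaches the tectorial membrane to non-sensory cells, stood at 0 and 7.79 CPM in P7 OHCs and at 31.7 and 63.9 CPM in P7 IHCs. Among carbonic anhydrases, the membrane-bound Car12 and Car14 were higher in P7 OHCs by 1.28 ± 0.41 (adjusted p = 0.0194) and 1.15 ± 0.34 (adjusted p = 0.0115), while the cytosolic Car7 stood at 0 to 2.57 CPM in P1 OHCs and 13.5 to 32.0 CPM in P1 IHCs. The water channel Aqp5 was at 41.5 and 49.3 CPM in P7 OHCs and 2.66 and 23.3 CPM in IHCs (1.43 ± 0.44, adjusted p = 0.0142). Of the 10 calls at P7, which include Otoa, 3 remained (Strc, Ldhb and Chrna10) among hair cells with at most 1 UMI of the supporting cell markers. The difference there was 0.64 for Aqp5, 0.95 for Car12 and 0.87 for the phosphatase gene Lpin2, and Car14 was not tested.

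The remaining lists gave few calls. Chrna10, a subunit of the acetylcholine receptor on which the efferent nerve acts, was higher in OHCs at P1 (145 to 368 against 82.8 to 225 CPM; 0.98 ± 0.19, adjusted p = 0.000154) and at P7 (1.04 ± 0.21, adjusted p = 3.59e-05), while its partner subunit Chrna9 was lower at P1 (206 to 277 against 286 to 395 CPM; -0.43 ± 0.14, adjusted p = 0.0429). Sptan1, a spectrin of the cortical skeleton, was higher at P1 by 0.56 ± 0.18 (adjusted p = 0.0421), Tmod2, a tropomodulin that caps actin filaments, by 1.07 ± 0.28 at P1 (adjusted p = 0.0083), and Lpin2, a phosphatidate phosphatase, by 1.19 ± 0.26 at P7 (adjusted p = 0.000111). The P1 difference of Chrna10 was 0.32 (adjusted p = 0.79) where OHCs had at least 3 UMIs of Ocm and 0.55 (adjusted p = 0.066) with all hair cells without Fgf8 as OHCs, and that of Tmod2 was 0.43 (adjusted p = 0.685) with at most 1 supporting marker UMI. With at least 3 UMIs of Ocm, Strc (1.30, adjusted p = 0.0628), Tmod2 (0.63, adjusted p = 0.681) and Sptan1 (0.13, adjusted p = 0.952) did not pass at P1 either, while Ldhb did. Sptan1 and Chrna9 fell short of the threshold without replicate 1 (adjusted p = 0.178 and 0.397), Sptan1 also without replicate 2 or 3, Chrna9 without replicate 4 and Tmod2 without replicate 3. None of the 12 STRIPAK genes tested passed at E16, P1 or P7 by limma, with 0 at an unadjusted p under 0.05 at each age. No other SLC26 transporter and no alpha-1-antitrypsin copy reached the mean of 10 CPM needed for a test.

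**Figure D4:**
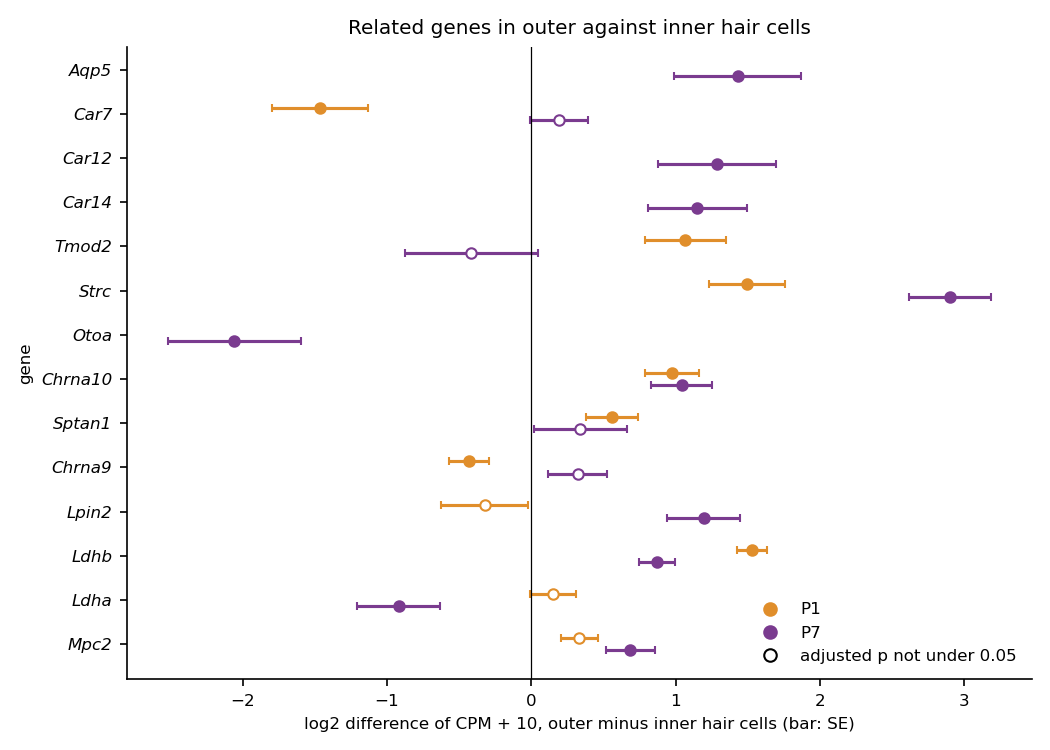
Difference of log2(CPM + 10) between outer and inner hair cells, with its SE as a bar, for genes related to the members that passed the threshold at P1 or P7 (open circles, adjusted p not under 0.05; an absent point, below the filter on low values). Strc, Chrna10 and Ldhb lie above 0 at both ages, and Ldha lies below 0 at P7. Car7 at P1 and Otoa at P7 passed the filter only through inner hair cells.

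The genes whose levels most resembled those of prestin over the OHC and IHC samples of the 4 P1 and 2 P7 libraries were Aox2 (r = 0.987), Ryr1 (0.984), Pald1 (0.980), Plekhg6 (0.974) and Ikzf2 (0.971), out of 9059 genes, by Pearson's correlation of log2(CPM + 10) over 12 samples. All 5 were at 5.98 CPM or less in P1 OHCs and at 45.8 CPM or more in P7 OHCs. Ikzf2, a transcription factor of OHCs, was at 167 to 249 CPM in P7 OHCs and at most 5.09 CPM in P7 IHCs. Among the members the same correlation was 0.915 for Aqp11, 0.882 for Car2, 0.762 for Lmod3, 0.721 for Pde6d, 0.676 for Strip2, 0.576 for Agpat2, 0.423 for Mpc1 and -0.003 for Mslnl, and 0.882 for Ocm, which set the classes. The 12 samples come from 6 libraries of 2 ages, and 10 of them are near 0 for prestin, so the correlation mainly records a level confined to P7 OHCs.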

How the data were processed

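Cells of the cochlear epithelium were captured with the 10x Genomics Chromium system. The authors aligned and counted UMIs with Cell Ranger 2.1.1 on mm10 and normalized them in Seurat 2.0, and the deposited values are the natural log of 1 plus 10000 times the share of the cell's UMIs, from which 100% of values came back as whole UMI counts within 2%. Cells had at least 1499 UMIs. Classes were gated by UMIs as stated, averaged per library as CPM where a library held 5 cells of the class, and compared as log2(CPM + 10) with limma 3.58.1 (R 4.3.3, mean trend, library as block within an age, genes averaging 10 CPM or more, Benjamini-Hochberg, threshold 0.05), checked on simulated data. Libraries, each an independent collection, were the replicates. No doublets were removed, and cells holding genes of 2 classes could be doublets. The members, gene lists and rules were chosen with earlier results of these data known. Related genes were named where they passed at P1 or P7 (at most 4 per list and age), and Ldhb and Chrna9 at E16 after their values were seen. Alternatives covered gates, pseudocount, filter, normalization, block and left-out replicates. Array weights and a minimum mean of 50 CPM were added after seeing the data. The 2 E14 libraries entered no test, and of their levels only those of Aqp11 in the lateral supporting gate and in Fst cells are given.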

Additional observations from a re-analysis of the deposited data

Results flagged for a closer look

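In 11 of 65 groups of 4 P1 libraries, 1 library lay apart from the other 3 by Dixon's test at the 95% level. In 7 of these, 3 libraries were at 0 and 1 was above it, so the ratio is 1 by construction and the chance rate of about 1 group in 20 does not apply. The other 4 are those of Aqp11, Serpina1c and Car2. In each, the level in CPM of the library that stood apart is given with the range of the other 3. Prestin was at 3.06 CPM in OHCs of replicate 4 and at 2.94 CPM in hair cells without Fgf8 or Ocm of replicate 4, with 0 in the others. In hair cells without Fgf8 or Ocm, replicate 1 stood apart for Aqp11, at 132 CPM against 58.9 to 62.8, and for Serpina1c, at 11.3 CPM against 31.2 to 34.4. Car2 was at 99.6 CPM in KO cells of replicate 1 against 28.5 to 34.8, and at 42.4 CPM in Oc90 cells of replicate 4 against 13.0 to 16.5. Strip2 was at 1.89 CPM in Fst cells, 1.28 CPM in Otoa cells and 2.104 CPM in Oc90 cells of replicate 1. Mslnl was at 1.56 CPM in KO cells of replicate 4 and at 7.73 CPM in Oc90 cells of replicate 1.

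The difference of Mpc1 between lateral supporting and KO cells was 0.46 in log2(CPM + 10) at E16, where every library was higher in lateral supporting cells, and -0.39 at P1, where every library was lower. The difference between the 2 ages was not tested.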

How the results depend on the processing

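At E16 the count of related genes called was 2 and became 0 with Myo6 of at least 5 UMIs, a mean of at least 50 CPM, array weights, a pseudocount of 1 or no replicate block, and 1 with hair cells by other markers, at most 1 supporting marker UMI or quantile normalization (0 to 2 with 1 replicate left out). At P1 it was 7 and became 2 with Ocm of at least 3 UMIs and 3 with no replicate block (5 to 7 with 1 left out), and at P7 it was 10 and became 3 with at most 1 supporting marker UMI and 3 with no replicate block. The 7 include Car7 and the 10 include Otoa, whose directions were set by the filter. Members called between lateral supporting and KO cells were 3 at E16, 1 with no filter on low values and 1 to 4 with 1 replicate left out, and 5 at P1, 3 with no replicate block and 3 to 4 with 1 left out. Lmod3, whose direction was set by the filter, is among the 5 at P1. Members above IHCs were 3 at E16 (7.25% of all genes) and 1 with at most 1 supporting marker UMI (7.6%), and 5 at P1 (3.19%, 4 libraries) and 8 with Ocm of at least 3 UMIs, which kept 2 libraries (12.6%). The direction turned for Agpat2 in lateral supporting cells from E16 to P1 (0.67, then -0.0722 with at least 2 UMIs of Fgfr3, neither called) and for Pde6d in E16 hair cells (0.23, then -0.0196 with Myo6 of at least 2 UMIs). Among members that overlapped, it turned by more than the spread for Lmod3 at P1 (-0.60, then 0.79) and Aqp11 from E16 to P1 OHCs (-0.89, then 0.24), both with Ocm of at least 3 UMIs, and for Car2 at E16 (0.28, then -0.82 with hair cells by other markers). The causes were not tested. Counts over all genes also moved, for example from 414 higher in P1 OHCs to 109 and from 563 in P7 OHCs to 248 with no replicate block, and from 563 to 228 with at most 1 supporting marker UMI. The 191 other values among the counts of members and related genes stayed within 1.5 times. For single genes and counts over all genes, 218 values moved by more than the spread or 1.5 times, 68 lost a call, 5 gained one and 1713 did none of these. Replicate numbers do not pair the ages: deviations of same-numbered E16 and P1 lateral supporting cells correlated at 0.0325, -0.0552 and 0.00165. A replicate block over numbers 1 to 3 gave 0 members called, as did the fit without it, so this count cannot speak to pairing. P1 and P7 share only 1 number, so no block was possible there. Leaving out a P7 library leaves no residual degrees of freedom within that age, so no such test was run. With 23 lateral supporting cells at P7, levels near 10 CPM rest on single UMIs.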

Other observations

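Lmod3 was also measured outside hair cells at P1, in KO cells, where all 4 libraries held it (11.7 to 35.4 CPM, 619 UMIs). With cells thinned to 1500 UMIs, 2.33% of 6995 P1 KO cells held a UMI (exact 95% interval 1.99 to 2.71%), against 0.515% for Ocm in the same cells, a hair cell gene given for comparison. In P7 KO cells, when OHCs and IHCs held far more Lmod3, it was at 0.839 to 2.39 CPM, and 0.253% of thinned cells held a UMI (0.0689 to 0.646%) against 0.442% for Ocm. At E16 4 of 3440 KO cells did.

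Aqp11 was present in cells of the lateral supporting gate, and in cells marked by Fst, before it reached its P7 level in OHCs. At E14 and E16 the cells of the lateral supporting gate may be progenitors that also give rise to OHCs, as stated above. In this gate Aqp11 was at 151 and 185 CPM at E14, 208 to 403 CPM at E16, 406 to 539 CPM at P1 and 257 to 332 CPM at P7. Cells marked by Fst held 174 and 198 CPM at E14, 213 to 233 CPM at E16, 246 to 372 CPM at P1 and 81.4 to 114 CPM at P7. In this class the KO markers summed to 3446 to 5134 CPM at P1 and 14687 to 15345 CPM at P7, so it may not hold the same kind of cell at both ages.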
